A study of Mus musculus with 10 samples.

Results

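Replication-dependent histone genes encode the H1, H2A, H2B, H3 and H4 proteins that package newly copied DNA, and their transcripts were followed in mouse kidney after ischemia-reperfusion injury (IRI). Members were all genes of the deposited table whose symbol begins with Hist1h, Hist2h, Hist3h or Hist4h, or with the matching newer names (H1f1 to H1f5, and H2ac, H2bc, H3c or H4c followed by a number). The rule found 70 genes among 55359, with 6 of class H1, 20 of H2A, 19 of H2B, 12 of H3 and 13 of H4. Of these, 56 lie on chromosome 13, 10 on chromosome 3, 3 on chromosome 11 and 1 on chromosome 6, and 3 are annotated as pseudogenes. The group was proposed because an earlier sum that held these genes was known to be lower in IRI, so its direction is described here and not tested.

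Kidney RNA of male mice was sequenced in 10 libraries. The 5 sham libraries came from kidneys after sham surgery. The 5 IRI libraries came from kidneys after 30 min of ischemia and 24 h of reperfusion. The sources used here do not give strain, age, diet or the time of sampling after sham surgery. No label says that each library is from its own mouse, and the p-values therefore reflect the spread from library to library.

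Most replication-dependent histone mRNAs are the exception among animal mRNAs in that they end in a short stem-loop rather than in a poly(A) tail. The stem-loop binding protein SLBP recognises that hairpin, and the mRNAs build up in S phase, when DNA is copied, and are degraded when copying stops. Several of the same genes can also be cut and polyadenylated further downstream, and those longer forms are known from differentiated, non-dividing cells. H2A, H2B, H3 and H4 form the nucleosome core, and H1 binds the linker DNA between cores. The libraries were made with oligo(dT) beads, which capture poly(A) tails, so the values below hold whatever polyadenylated or carried-over histone RNA the beads retained. A difference in poly(A) capture and a difference in the RNAs themselves cannot be told apart in such libraries. In bulk kidney, fewer cells of a type and less RNA per cell cannot be told apart either.

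The stem-loop was searched for by its structure in the annotated transcripts (GENCODE M21, GRCm38). It was defined as a perfect stem of 6 base pairs beginning with GG around a loop of 4 bases beginning with TT, 3′ of the stop codon. It was found in 44 of the 70 members. Outside them whole transcripts were searched, without regard to the stop codon, and the structure was found in 141 genes (0.255%). The hairpins below belong to the members of highest level in which one was found. They are shown because the distance from the hairpin to the annotated 3′ end differs between members. The stem is in capitals, between the flanks and the loop in lower case.
Hist1h1c (chr13:23739507-23739532, plus strand): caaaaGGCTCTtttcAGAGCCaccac
Hist3h2a (chr11:58955167-58955192, plus strand): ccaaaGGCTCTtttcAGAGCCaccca
Hist1h4i (chr13:22040961-22040986, minus strand): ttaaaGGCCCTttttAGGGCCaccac
Hist1h4h (chr13:23531453-23531478, plus strand): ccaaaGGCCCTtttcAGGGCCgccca
Hist1h2be (chr13:23585526-23585551, minus strand): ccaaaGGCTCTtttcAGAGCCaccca
Hist2h3c2 (chr3:96238480-96238505, minus strand): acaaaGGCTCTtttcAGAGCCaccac
The hairpin of Hist1h1c, Hist3h2a, Hist1h2be and Hist2h3c2 has the stem and loop shared by 26 members. That of Hist1h4h was found in 7 members, and that of Hist1h4i in 2. No such hairpin was found in the annotated transcripts of Hist1h2bc and Hist2h2be, or in those of other members, 26 in all, of which 13 are annotated only as far as the stop codon.

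The summed level of all 70 members was lower in IRI. It was 272, 265, 339, 333 and 343 CPM (a count scaled to a common library total) in sham replicates 1 to 5. In IRI replicates 1 to 5 it was 117, 128, 106, 73.9 and 73.8 CPM. The highest IRI library lay below the lowest sham library, and IRI replicates 4 and 5 were the lowest of all. The sham mean was 310.4 ± 38.4 CPM and the IRI mean 99.8 ± 24.8 CPM (SD over 5 libraries), a ratio of 0.322. On TMM-adjusted totals, which correct for composition, the same ratio was 0.272.

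**Figure D1:**
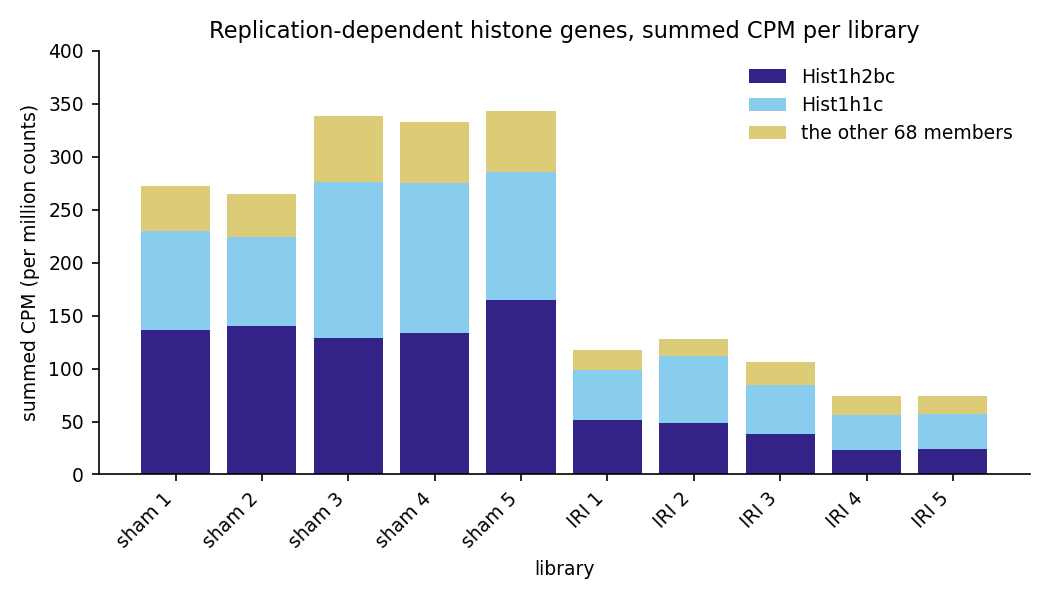
Stacked bars give the summed CPM of the 70 members in each library, split into Hist1h2bc, Hist1h1c and the other 68 members. Sham libraries reach 265 to 343 CPM and IRI libraries 73.8 to 128 CPM, and each of the 3 layers is thinner in every IRI library than in any sham library.

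Most of the signal came from a pair of genes. Hist1h2bc (H2bc4, an H2B gene) and Hist1h1c (H1f2, which encodes the linker histone H1.2) together held 81.5% to 84.5% of the summed CPM in sham and 76.1% to 87.9% in IRI. Together the other 68 members reached 41.1 to 62.6 CPM (sham) and 15.4 to 21.7 CPM (IRI), a ratio of 0.344, and these ranges did not overlap either. Of the 70 members, 17 had no count in any library, 27 had 1 to 9 counts over all 10 libraries, 14 had 10 to 99 and 12 had 100 or more. Members with no count included 9 of the 20 H2A genes and none of the 13 H4 genes. However, 26 members overlap another gene of the table, and these include every H2A gene but hardly any H4 gene. Reads in such overlaps may have been dropped, so a count of 0 does not show that a gene was silent.

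The sum was lower in IRI in each of the 5 histone classes, without overlap between the groups. The ratio of IRI to sham means was 0.118 for H3, 0.203 for H4, 0.287 for H2B, 0.379 for H1 and 0.420 for H2A. H3 transcripts came to between 2.26 and 3.36 CPM in sham and between 0.0587 and 0.861 CPM in IRI. H4 transcripts came to between 14.2 and 21.97 CPM in sham and between 2.29 and 4.73 CPM in IRI. The H1 class was carried by Hist1h1c, and without it the other 5 H1 genes held 0.806 to 3.96 CPM in sham and only 0.176 to 0.799 CPM in IRI. Without Hist1h2bc the other 18 H2B genes had a ratio of 0.487. The H3 class was mostly Hist2h3c2 in sham, with a mean of 2.55 of 2.85 CPM. The H2A class was mostly Hist3h2a, with 11.9 of 13.1 CPM in sham and 4.86 of 5.52 CPM in IRI. Sums of H3 and H2A without these genes were not computed. The ratios and the lack of overlap of these classes therefore rest mainly on a single gene each. By genomic cluster, the ratio was 0.308 for the 56 genes on chromosome 13, 0.469 for the 10 on chromosome 3 and 0.450 for the 3 on chromosome 11. Hist4h4, the single member on chromosome 6, chosen here after its values were seen, had 13 counts in sham and 16 in IRI, with overlapping libraries.

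A count model across all genes gave each member its own fold change. A gene was tested if it had at least 1 FPKM (CPM per kilobase of exon) in 5 or more libraries, and called at an adjusted p under 0.05 by edgeR's quasi-likelihood test with Benjamini-Hochberg adjustment. Of the 70 members, 9 were tested and 61 were below the filter. Among those tested, 3 reached 1 FPKM in all 5 sham libraries but not in all 5 IRI libraries. The IRI libraries that reached it numbered 4 for Hist1h4i, 1 for Hist1h4c and 0 for Hist2h3c2. These 3 genes thus met the filter by their 5 sham libraries alone, whatever their level in IRI. Lower calls were made for 8 of the 9, beside 32.4% of all 13324 genes tested, and higher calls for none, beside 34.5%, or 66.9% in either direction. Nothing is read from this count, since the group was chosen on the same contrast. The median log2 fold change was -2.15 over the 9 members, which is the value of Hist1h4c, and 0.05 over all genes tested. Scaling by library totals moved the median of all genes to 0.30 and that of the members to -1.91, and changed the calls over all genes from 4599 higher and 4320 lower to 6311 higher and 3149 lower.

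Hist1h2bc had the highest level of any member. Its CPM was 136, 139.9, 129, 133 and 165 in the sham libraries and 51.1, 48.4, 38.3, 22.9 and 24.1 in the IRI libraries. Every IRI library was below every sham library, IRI replicates 4 and 5 were the lowest, and sham replicate 5 was the highest. The log2 fold change was -2.16 ± 0.24 (SE, here and below; adjusted p = 8.48e-06). Per kilobase it stood at 122 ± 12.2 FPKM in sham and at 32.0 ± 11.4 FPKM in IRI (SD over 5 libraries each). The gene lies on the plus strand at 23868182 to 23876891 of chromosome 13 (GRCm39). Its annotated transcript has 2 exons with an intron of 7554 bases between them and ends without the hairpin.

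Hist1h1c showed 93.1, 84.3, 147, 142 and 120.3 CPM in sham and 47.9, 63.8, 46.4, 33.3 and 32.8 CPM in IRI. The groups did not overlap, and sham replicates 3 and 4 stood above sham replicates 1 and 2. Its log2 fold change was -1.63 ± 0.22 (adjusted p = 3.48e-05), and it stood at 75.2 ± 18.1 FPKM in sham against 28.7 ± 8.17 FPKM in IRI. The annotated transcript, a single exon at 23922791 to 23924350 of chromosome 13 (GRCm39), runs 840 bases past the hairpin shown above. The libraries did not order Hist1h1c and Hist1h2bc alike. The ratio of Hist1h2bc to Hist1h1c counts was 1.47, 1.66, 0.877, 0.939 and 1.37 in sham and 1.07, 0.758, 0.826, 0.688 and 0.736 in IRI, so the ranges overlapped. Per kilobase, every sham library had more Hist1h2bc (111 to 143 FPKM) than Hist1h1c (54.0 to 94.3 FPKM), while in IRI their ranges of 19.8 to 44.2 and 21.02 to 40.9 FPKM overlapped.

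Hist2h2be and Hist3h2a, on chromosomes 3 and 11, also fell. Hist2h2be (H2bc21, an H2B gene on chromosome 3) had 8.55, 9.19, 15.3, 10.3 and 12.4 CPM in sham and 3.69, 4.87, 8.03, 8.51 and 6.59 CPM in IRI. The highest IRI library, replicate 4, lay just under the lowest sham library. Here IRI replicates 1 and 2 were the lowest, in contrast to Hist1h2bc, for which they were the highest of the IRI group. The log2 fold change was -1.07 ± 0.23 (adjusted p = 0.00119). Hist3h2a (H2aw, an H2A gene on chromosome 11) had 10.6, 9.51, 12.3, 13.5 and 13.4 CPM in sham and 3.93, 3.27, 6.82, 5.16 and 5.11 CPM in IRI. The groups did not overlap, and the gene had a log2 fold change of -1.53 ± 0.19 (adjusted p = 2.18e-05). Hist3h2a overlaps Trim17 on the same strand and an unnamed gene on the other, so its counts may hold or lack reads of those genes.

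Among the members tested, the 3 largest falls were those of 1 H3 and 2 H4 genes. Hist1h4i (H4c9) had 6.46, 6.02, 7.37, 10.2 and 8.62 CPM in sham and 1.54, 0.913, 1.16, 0.528 and 0.772 CPM in IRI. Hist1h4h (H4c8) had 5.86, 5.86, 6.28, 9.09 and 8.02 CPM in sham and 2.21, 1.75, 1.56, 1.41 and 1.19 CPM in IRI. For both, sham replicates 4 and 5 were highest and IRI replicate 1 was the highest of its group, still below every sham library. Their log2 fold changes were -3.20 ± 0.29 and -2.35 ± 0.23 (adjusted p = 1.86e-06 and 3.64e-06). Hist2h3c2 (H3c15, an H3 gene on chromosome 3) had 2.89, 1.99, 3.11, 2.42 and 2.35 CPM in sham and 0.184, 0.152, 0.0578, 0 and 0.178 CPM in IRI, or 202 counts against 9. This gave the largest fall among the members tested, -4.65 ± 0.40 (adjusted p = 1.45e-06). Hist1h4c (H4c3) was nearly constant in sham, at 1.55, 1.56, 1.52, 1.59 and 1.57 CPM, and spread widely in IRI, at 0.553, 1.06, 0.404, 0 and 0.119 CPM. Its fall of -2.15 ± 0.55 had the largest adjusted p of the 8 lower calls, 0.00412.

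Hist3h2ba (H2bu2, an H2B gene on chromosome 11) was the tested member that was not called. It had 0.404, 0.376, 1.10, 0.606 and 0.904 CPM in sham and 0.492, 0.456, 1.56, 0.704 and 0.832 CPM in IRI. The groups overlapped throughout, and the log2 fold change was 0.02 ± 0.41 (adjusted p = 0.969). A change within that error was not detectable at this depth.

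**Figure D2:**
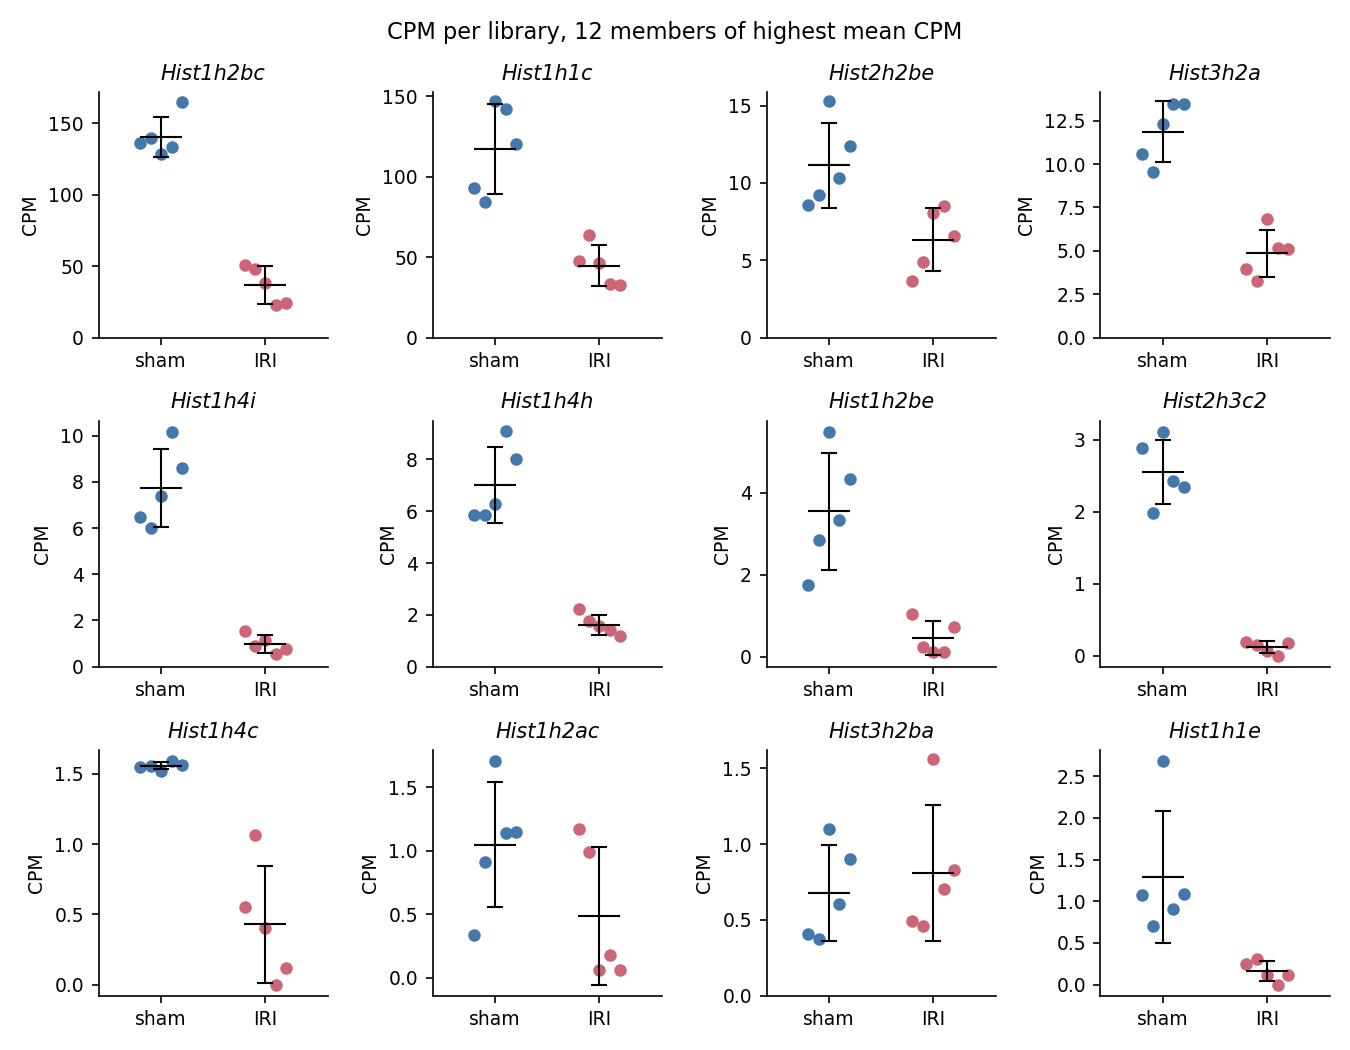
Points give the CPM of each library for the 12 members of highest mean CPM, with a horizontal line at the group mean and error bars of 1 SD (n = 5 libraries each); each panel has its own linear axis. Sham and IRI points are separate in 10 panels, and overlap for Hist1h2ac and Hist3h2ba.

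Among the 12 members of highest mean CPM, Hist1h2be, Hist1h2ac and Hist1h1e were below the filter. Hist1h2be (H2bc6, an H2B gene) had 1.75, 2.85, 5.48, 3.33 and 4.34 CPM in sham and 1.04, 0.228, 0.116, 0.117 and 0.713 CPM in IRI. Hist1h1e (H1f4, which encodes H1.4) had 1.08, 0.699, 2.68, 0.909 and 1.08 CPM in sham and 0.246, 0.304, 0.116, 0 and 0.119 CPM in IRI. Both were lower in every IRI library, but their annotated spans overlap each other and Gm11398 on the same strand, so reads may have been split or dropped between them. Hist1h2ac (H2ac6, an H2A gene) had 0.337, 0.914, 1.71, 1.14 and 1.15 CPM in sham and 1.17, 0.989, 0.0578, 0.176 and 0.0594 CPM in IRI. Its groups overlapped, with IRI replicates 1 and 2 at the level of sham.

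Of the 9 members tested, 8 had every IRI library below every sham library and none had the reverse, beside 18.6% and 36.8% of the genes tested. Over all 70 members, tested or not, 10 had every IRI library below every sham library. The matching share over all genes, tested or not, was not computed, and nothing is read from this count. With every gene of at least 1 count tested, 53 members entered the fit. Of these, 14 were called lower and 1 higher, beside 18.0% and 19.3% of 30454 genes. The 6 added lower calls were Hist1h1d, Hist1h1e, Hist1h2ah, Hist1h2be, Hist1h2bh and Hist1h4j. The higher call was Hist1h1a (H1f1, the H1.1 gene), with 0 counts in sham and 8 in IRI, and the call rests on those 8 counts. Those of these genes that the naming rule does not take were chosen after their values were seen. The 62 members with a mean under 1 CPM held 969 of the 32553 counts. Among the 45 of them with a count, 26 had more counts in sham, 17 more in IRI and 2 equal counts, for 677 counts in sham and 292 in IRI. Their summed level overlapped between the groups, with 5.64 to 12.8 CPM (sham) and 1.94 to 5.78 CPM (IRI).

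**Figure D3:**
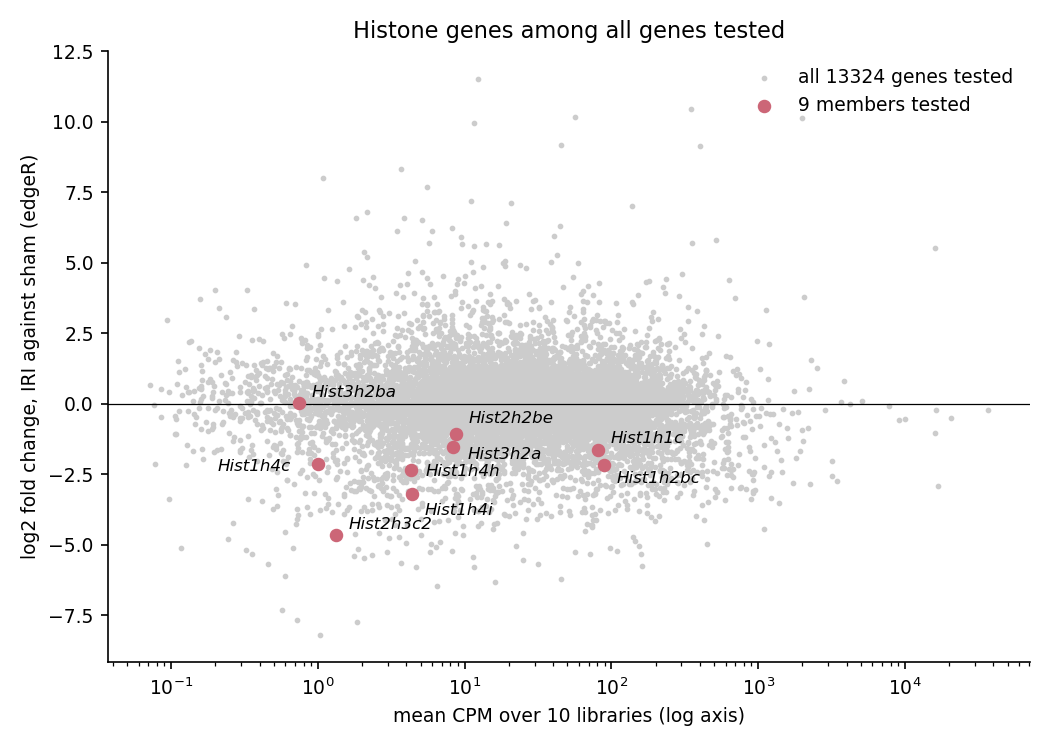
Each grey point is 1 of the 13324 genes tested, by its mean CPM over 10 libraries (log axis) and its edgeR log2 fold change of IRI against sham; the 9 members tested are in red. The 8 called members lie between -1.07 and -4.65, and Hist3h2ba lies at 0.02.

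Levels of different members can be compared per kilobase. In sham the order by mean FPKM was Hist1h2bc, Hist1h1c, Hist1h4h (14.9 ± 3.11), Hist1h4i (10.6 ± 2.31), Hist3h2a (5.53 ± 0.825), Hist2h2be (4.25 ± 1.05), Hist2h3c2 (2.50 ± 0.440), Hist1h4c (1.9 ± 0.0292) and Hist3h2ba (1.10 ± 0.514). Hist1h4h and Hist1h4i overlapped over the sham libraries, at 12.5 to 19.3 and 8.28 to 14.0 FPKM, as did Hist3h2a and Hist2h2be. In IRI, Hist1h4h was at 3.46 ± 0.826 FPKM, Hist2h2be at 2.42 ± 0.783, Hist3h2a at 2.26 ± 0.636, Hist1h4i at 1.35 ± 0.527 and Hist3h2ba at 1.32 ± 0.729. Hist1h4c followed at 0.520 ± 0.512 and Hist2h3c2 at 0.112 ± 0.0785 FPKM. Hist1h4i thus stood above Hist2h2be in every sham library, with at least 8.28 FPKM against at most 5.84, whereas in IRI their ranges of 0.73 to 2.11 and 1.41 to 3.25 FPKM overlapped.

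Members annotated to end near the hairpin held little of the signal. Of the 44 members with a hairpin, 22 are annotated to end within 100 bases of it and 22 run further, a limit that was chosen after the values were seen. The 22 that end near the hairpin held 2.43% of the members' mean CPM in sham, or 6.07 to 9.70 CPM by library, against 1.47 to 3.32 CPM in IRI. The 22 that run further held 48.4%, or 109 to 186 CPM, against 40.6 to 72.0 CPM in IRI. The 26 members in which no hairpin was found held 49.2%, most of it Hist1h2bc, or 144 to 178 CPM, against 30.8 to 55.7 CPM in IRI. All 3 sums were lower in every IRI library, and the ratios of IRI to sham means were 0.280, 0.360 and 0.286.

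Among the 12 members of highest mean CPM, the annotated transcript runs past the hairpin by 2010 bases in Hist1h2ac, 1861 in Hist1h2be, 1643 in Hist3h2a and 1153 in Hist1h1e. Hist2h3c2 runs 377 bases past it, Hist1h4c 454 and Hist1h4i 330. Hist1h4h ends 46 bases past its hairpin, and only Hist1h2bc and Hist1h1c had a higher FPKM in sham. The letters AATAAA or ATTAAA, the usual signals for polyadenylation, stood in the last 50 bases of the annotated transcript in 16 members, Hist1h1c, Hist2h2be, Hist3h2a, Hist1h4i and Hist1h4h among them. They stood there in 50.2% of 58797 protein-coding transcripts of the annotation.

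**Figure D4:**
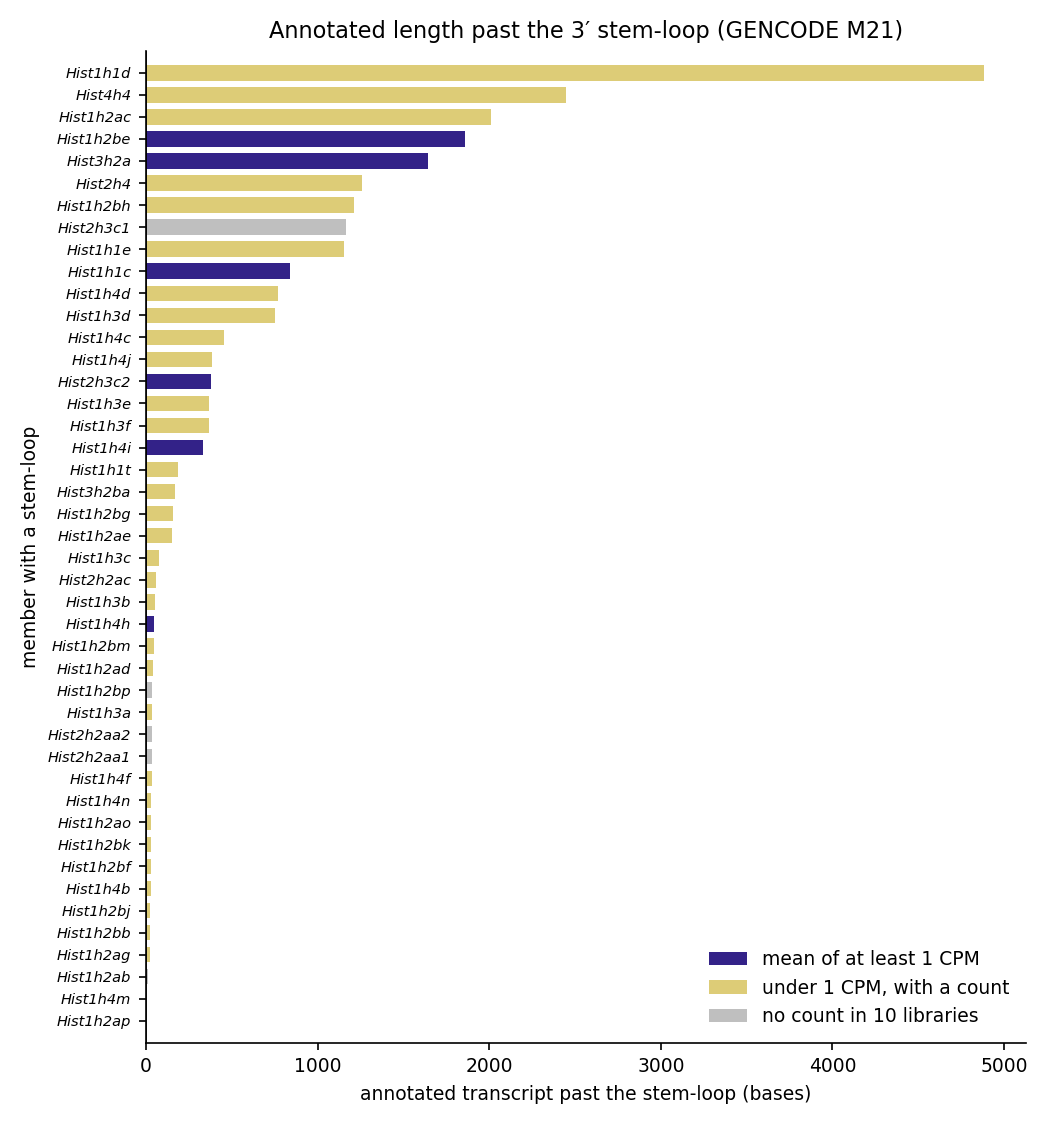
Bars give, for the 44 members with a hairpin, how many bases the annotated transcript runs past it; colour gives the member's level over the 10 libraries. Of the 6 members with a hairpin and a mean of at least 1 CPM, Hist1h4h alone is annotated to end within 100 bases of it.

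Members are alike in sequence, which bears on how well reads can be told apart. Of the 70 members, 22 shared at least 50% of their windows of 150 bases (the read length) with another gene, and 16 shared none. Windows were pooled over the annotated transcripts of each member. The median shared portion was 72.5% in the 17 members without a count and 22.3% in the 53 with one. Hist1h1c shared no window, Hist1h2bc shared 17.4%, and Hist1h4h and Hist3h2a 28.04% each. Hist2h3c2 shared 59.4% of its windows, and its near copy Hist2h3c1 had no count. The sources used here do not say how the counting treated reads that matched more than 1 gene, and the split between such copies is uncertain.

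Upstream sequence was available for 62 members (RefSeq, GRCm38.p6, 250 bases before to 50 after the start). TATAAA was present on either strand in 56.5% of these windows and in 15.7% of the windows of 27025 genes. CCAAT was present in 85.5% against 41.1%, and the octamer ATTTGCAT in 22.6% against 1.97%. CCAAT was present in every window of classes H1, H2A, H2B and H3 and in 25% of those of H4, and the octamer was found in windows of H2A (38.9%) and H2B (43.8%) genes and in no window of the other classes. The stretches below are those before the starts of Hist1h1c, Hist1h4h and Hist1h2ac, with matches in capitals. The last runs for 239 bases from the RefSeq start of Hist1h2ac to the GENCODE start of Hist1h2bc, which is transcribed the other way. The starts in the deposited table are 250 bases apart.
Hist1h1c (chr13:23738557-23738806, plus strand): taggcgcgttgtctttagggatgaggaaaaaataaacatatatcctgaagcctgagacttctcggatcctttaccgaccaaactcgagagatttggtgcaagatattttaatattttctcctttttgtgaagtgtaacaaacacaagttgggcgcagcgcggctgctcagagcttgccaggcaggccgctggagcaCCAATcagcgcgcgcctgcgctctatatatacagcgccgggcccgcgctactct
Hist1h4h (chr13:23530794-23531043, plus strand): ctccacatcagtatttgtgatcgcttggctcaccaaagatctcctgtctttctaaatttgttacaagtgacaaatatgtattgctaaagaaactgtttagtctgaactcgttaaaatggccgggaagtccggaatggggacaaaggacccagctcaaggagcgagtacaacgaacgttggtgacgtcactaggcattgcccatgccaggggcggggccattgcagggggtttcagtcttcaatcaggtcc
Hist1h2ac (chr13:23683960-23684198, minus strand): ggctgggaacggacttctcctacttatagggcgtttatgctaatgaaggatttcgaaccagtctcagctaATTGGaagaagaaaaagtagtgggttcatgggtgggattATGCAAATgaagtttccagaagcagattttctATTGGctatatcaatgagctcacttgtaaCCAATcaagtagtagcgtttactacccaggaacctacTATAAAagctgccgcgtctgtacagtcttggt
The Hist1h1c stretch holds 1 CCAAT, 54 bases before the start. No match to these letters is in the Hist1h4h stretch. The Hist1h2ac stretch holds CCAAT 3 times, the octamer 130 bases before the start on the other strand, and TATAAA 32 bases before it.

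In the deposited coordinates 14 pairs of H2A and H2B genes start in opposite directions with 172 to 305 bases between them. Of these, 5 pairs had a gene with 20 or more counts over the 10 libraries, and the others had too few counts to compare. Hist1h2bc and Hist1h2ac, 250 bases apart, stood at 122 and 0.424 FPKM in sham and at 32.0 and 0.196 FPKM in IRI. Hist2h2be stood at 4.25 FPKM in sham, and its neighbour Hist2h2ac had no count there. Hist3h2a and the pseudogene Hist3h2bb-ps stood at 5.53 and 0.37 FPKM in sham. The remaining pairs were low in both genes, with 0.472 and 0.202 FPKM in sham for Hist1h2bk and Hist1h2ah, and 0.566 and 0 for Hist1h2bg and Hist1h2ae. The neighbours outside the naming rule were named after their values were seen. Hist1h2ac, Hist2h2ac, Hist1h2ah and Hist1h2ae each overlap an unnamed gene of the table, and their H2B neighbours overlap none. Reads may have been dropped from these H2A genes, and the part of this in the differences was not tested.

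Histones listed as replication-independent are mostly ones that cells also make outside S phase, from polyadenylated transcripts. They were called in both directions at shares no higher than those of all genes. Of 11 such genes, 9 were tested, 3 were higher in IRI, 2 lower and 4 not called, beside 34.5% higher and 32.4% lower over all genes tested. Their median log2 fold change was -0.15, which became 0.10 under scaling by library totals. H3f3b, a gene of the replacement histone H3.3, rose by 0.80 ± 0.12 (adjusted p = 0.000118), from 114 ± 13.4 to 236 ± 29.9 FPKM. H2afv, a gene of the H2A.Z variant, fell by 0.86 ± 0.13 and H2afj by 0.79 ± 0.17 (adjusted p = 7.16e-05 and 0.00151). H2afz, the other H2A.Z gene, named after its value was seen, rose by 0.31 ± 0.11 (adjusted p = 0.0195). H3f3a, the other H3.3 gene, had a log2 fold change of -0.15 ± 0.10 (adjusted p = 0.182), which was 0.10 under library totals. Over the 11 genes the level was 969 to 1198 CPM (sham) and 1332 to 1536 CPM (IRI), so that the ratio of IRI to sham was 1.32, against 0.322 for the replication-dependent genes. No test of that difference was run.

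Genes that transcribe, cut and degrade histone mRNA were mostly higher in IRI. Of 18 genes, 17 were tested, 11 were higher, 3 lower and 3 not called, with a median of 0.42. Over all genes tested, 34.5% were called higher and 32.4% lower. Lsm11, a subunit of the U7 particle that cuts histone precursors, rose by 1.63 ± 0.15 (adjusted p = 1.97e-06). Casp8ap2 (FLASH), needed for the same cut, rose by 0.80 ± 0.18 (adjusted p = 0.00170), and Ncbp2, a cap-binding subunit, fell by 0.95 ± 0.09 (adjusted p = 3.49e-06). Slbp (0.51 ± 0.12) and Npat (0.55 ± 0.16), the histone gene activator, were also higher and are named after their values were seen. So are the other lower calls, Lsm10, of the same U7 particle as Lsm11, and Ncbp1. Lsm10 had -0.58 ± 0.16 (adjusted p = 0.00672) and Ncbp1 -0.39 ± 0.09 (adjusted p = 0.00180). Neither of these passed the threshold under library totals (adjusted p = 0.1184 and 0.1455). Srrt, of highest level among the uncalled genes, had 0.15 ± 0.09 (adjusted p = 0.150).

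Histone chaperones and DNA replication genes were mostly higher as well. Of 16 chaperone genes, 14 were tested, 8 were higher, 1 lower and 5 not called, with a median of 0.38. Chaf1b, a subunit of the complex that loads new H3 and H4 behind the replication fork, rose by 2.67 ± 0.21 (adjusted p = 7.84e-07). Rbbp7 rose by 0.67 ± 0.10 and Daxx by 0.63 ± 0.10 (adjusted p = 6.81e-05 and 0.000198). The lower call was Rbbp4, at -0.27, named after its value was seen, and Nap1l1 was not called (0.20 ± 0.12, adjusted p = 0.168). Of 27 genes of S phase and DNA replication, 22 were tested, 14 were higher, 1 lower and 7 not called, with a median of 0.95. Uhrf1, which carries DNA methylation through replication, rose by 2.78 ± 0.27, the ribonucleotide reductase subunit Rrm2 by 2.33 ± 0.15 and the helicase subunit Gins2 by 1.82 ± 0.20 (adjusted p = 3.28e-06, 1.94e-07 and 8.60e-06). Mcm7 was not called (0.11 ± 0.17, adjusted p = 0.569). Higher calls covered 34.5% of all genes tested and lower calls 32.4%, and these lists were chosen with results of these data known.

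**Figure D5:**
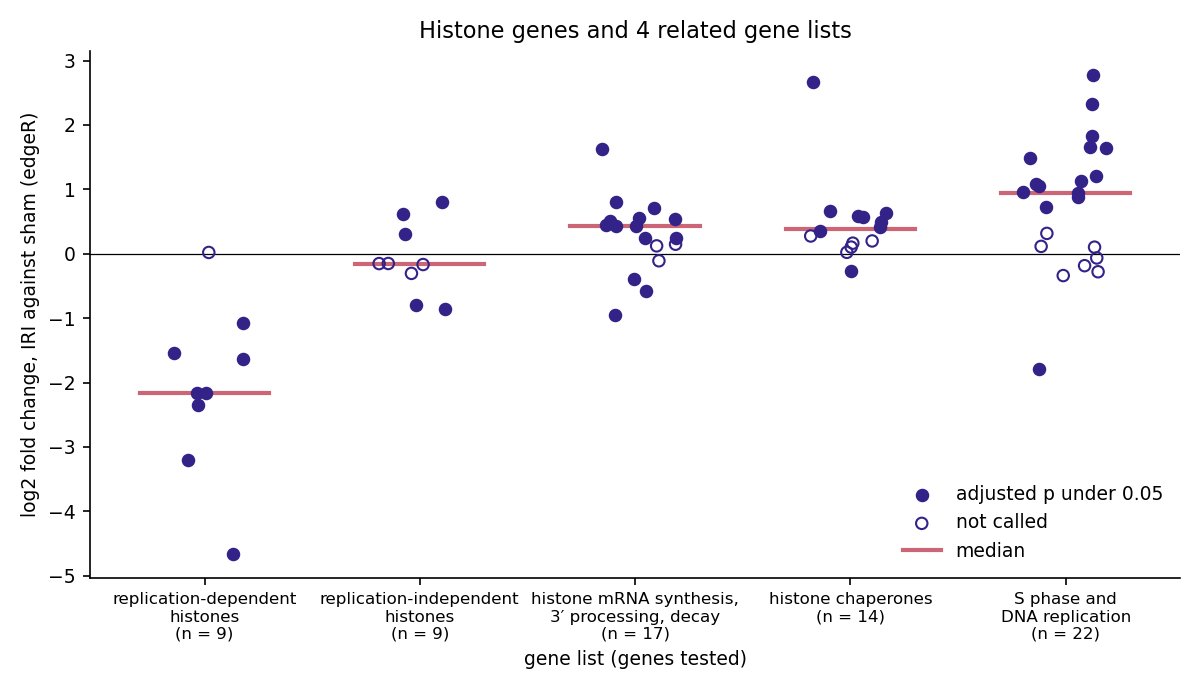
Points give the edgeR log2 fold change of IRI against sham for each tested gene of the replication-dependent histones and of 4 related lists, filled where the adjusted p is under 0.05, and red lines give list medians. The medians are -2.15, -0.15, 0.42, 0.38 and 0.95 from left to right.

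Of 12 genes of G2 and mitosis, 3 were tested and 2 were higher, beside 34.5% of all genes tested. Cdc20 rose by 1.19 ± 0.27 (adjusted p = 0.00186) and Plk1 by 0.58 ± 0.21 (adjusted p = 0.0269), and Ccnb2 was not called (0.43 ± 0.31, adjusted p = 0.238). The call of Plk1 was lost without sham replicate 1 (adjusted p = 0.0515), without IRI replicate 5 (0.0579) and with no filter (0.0728). Without the filter, 4 of the 12 were called higher and 0 lower, beside 19.3% and 18.0% of all genes.

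Other RNAs that mostly lack a poly(A) tail were near zero, and the groups overlapped. Their 15 table entries, under 13 names, came to 0.670 to 1.74 CPM over the sham libraries and 0.751 to 2.40 CPM over the IRI libraries. Of these, 2 were tested and neither was called. Rpph1, the RNA of ribonuclease P, had a log2 fold change of -0.20 ± 0.62 (adjusted p = 0.790), and Rmrp, Rnu11, Rprl1, Rprl2 and Rprl3 had no count. Neat1, a nuclear RNA with both a polyadenylated and a tailless form, fell by 1.92 ± 0.28 (adjusted p = 6.44e-05), with 1995 to 3485 CPM (sham) and 421 to 1236 CPM (IRI). Malat1, another nuclear RNA of that list, named after its value was seen, was not called, with a log2 fold change of 0.12 ± 0.14 (adjusted p = 0.483), which was 0.36 (adjusted p = 0.0262) under library totals. The mitochondrial ribosomal RNA mt-Rnr2 stood at 10921 CPM in IRI replicate 1 and at 1123 to 2815 CPM in the other IRI libraries. Without IRI replicate 1 the ratio of the histone sums was 0.308, and the same 8 members were called lower.

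Marker levels of several cell types also differed between the groups, some lower and some higher in IRI. Library totals were 13147899 to 18603272 counts and overlapped between the groups. Markers of injured tubule (5 of 5 with counts) were at 11.99 to 16.6 CPM in the sham libraries and at 4330 to 7062 CPM in those labelled IRI. All 10 proximal tubule markers passed the filter, and they came to 43150 to 54440 CPM (sham) and 3573 to 12487 CPM (IRI), with IRI replicates 4 and 5 lowest, as for the histone sum. Markers of B and plasma cells (8 of 8 with counts, 2 above the filter) came to 16.2 to 23.8 and 4.26 to 8.02 CPM, and those of T and NK cells (9 of 9 with counts, none above the filter) to 6.29 to 10.5 and 3.38 to 5.70 CPM. Neutrophil markers (10 of 10 with counts) came to 2.15 to 3.74 CPM (sham) and 25.5 to 77.4 CPM (IRI). Markers of endothelium (5 of 5 with counts) came to 257 to 363 CPM (sham) and 457 to 676 CPM (IRI), and those of monocytes and macrophages (10 of 10 with counts) to 86.4 to 131 and 134 to 190.0 CPM. Summed markers of thick ascending limb and distal tubule (5 of 5 with counts) and of red blood cells (7 of 7 with counts) overlapped between the groups, with IRI to sham ratios of 1.28 and 1.30. Within the first sum Umod, named after its value was seen, did not overlap, at 1365 to 3329 CPM (sham) and 3674 to 6679 CPM (IRI). It made up 2494 of 5323 CPM in the sham mean and 5157 of 6797 CPM in the IRI mean. The rest of that list was thus lower together in IRI, and its overlapping sum does not mean unchanged markers. No marker of these lists was at 0 in all libraries. Their part in the histone values was not tested.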

How the data were processed

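Kidney RNA of 10 libraries, 5 sham and 5 IRI, was analysed from 1 table deposited by the authors, which gives every gene a whole-number count and an FPKM in every library. The submitters' processing notes name cutadapt 1.9.1, HTSeq 0.6.1 and HISAT2 2.0.1, with GRCm39 as build and without settings. The authors' FPKM could be recomputed from their counts, exonic lengths and library totals in 100% of values. The sources used here do not say whether counting used strand, and reads of a gene and an opposite-strand neighbour cannot be told apart.

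Symbols came from a reference table of gene names (52083 of 55359 genes). Members and gene lists were chosen with earlier results of these data known. CPM was computed on library totals. The count test was edgeR 4.0.16 (R 4.3.3), glmQLFTest with TMM factors and group as the only term, over genes that reached 1 FPKM in at least 5 libraries. Calls were made at a Benjamini-Hochberg adjusted p under 0.05, and the sums over members were not tested. On simulated counts for 13324 genes, 50 of them changed at each fold, edgeR recovered 56% at 1.5-fold and 94% at 2-fold. It recovered 94% at 4-fold and 100% at 8-fold, with 6.52% false calls. In the measured libraries 66.9% of genes were called, a far larger share than was changed in the simulation. Chi-square per degree of freedom between libraries reached 88.9 within IRI and 33.4 within sham. Whether the simulated rates hold under these conditions was not tested. Alternatives were DESeq2 1.42.0, limma 3.58.1 on log2(FPKM + 1) and log2(FPKM + 0.1), other scalings and filters, a replicate block and leaving out each library.

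Members with a mean of at least 1 CPM are named, those with the 12 highest means by every library. Per list, the 3 called genes of largest fold change and the uncalled gene of highest level are named. The result of 1 gene of these lists is not reported here. Hairpins were searched in GENCODE M21 transcripts (GRCm38) and motifs in RefSeq windows (GRCm38.p6). Library totals of 13147899 to 18603272 counts limit the precision of low genes. Libraries of 1 group differed by more than counting error (chi-square per degree of freedom 7.96 to 88.9).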

Additional observations from a re-analysis of the deposited data

Results flagged for a closer look

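Of 38 groups of 5 libraries examined, 2 had a library far from the others, where chance gives about 5%. The summed CPM of the H2B class was 183.8 in sham replicate 5, and the next sham library was at 153.2, a gap of 0.858 of the group's range. Hist1h1e was at 2.681 CPM in sham replicate 3, with the next sham library at 1.085, a gap of 0.805 of the range. Without sham replicate 5 the ratio of the histone sums was 0.330, and without sham replicate 3 it was 0.329.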

How the results depend on the processing

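The ratio of summed CPM, 0.322, ranged from 0.265 (members under 1000 bases) to 0.370 (without Hist1h2bc) over the other settings, and from 0.299 to 0.343 on leaving out single libraries. The same 8 members were among those called lower in every setting. In all, 10 of 12 tested were lower with at least 10 counts in 5 libraries, and 14 lower and 1 higher of 53 under no filter. Lower calls of replication-independent histones numbered 4 by DESeq2, against 2. Lower calls of histone mRNA processing genes numbered 1 under library totals and by limma with either pseudocount, against 3. Chaperones had 13 higher calls under library totals, against 8, and 0 lower under library totals, no filter and limma with either pseudocount, against 1. S phase genes had 1 to 2 lower calls on leaving out single libraries, 2 without IRI replicate 3. Genes of G2 and mitosis had 4 higher calls under no filter, 6 with at least 10 counts in 5 libraries, and 1 to 2 on leaving out single libraries, 1 without sham replicate 1 or IRI replicate 5, against 2. The cause was not tested. Srrt and Nap1l1 passed the threshold under library totals and by limma.

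No label says whether replicate numbers pair the libraries. Deviations of same-numbered libraries correlated at -0.260 to 0.076, which does not settle it. With a replicate block 8 members were lower and 0 higher, and 4221 genes were higher and 4097 lower overall. Depth limits the 62 members under 1 CPM, and counts of such genes cover counting error only.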
